A study of Mus musculus with 8 samples.

Results

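The genes described here are those of protein folding and quality control in the endoplasmic reticulum (ER): chaperones, disulfide isomerases, degradation genes, stress sensors, and genes of the channel and peptidase through which new proteins enter. They were taken by symbol from the deposited count table, where 37 of 25230 gene symbols matched, 1 of them, Selenos, being listed also under its older symbol Vimp. All 37 passed the filter on low counts. The cells were gut intraepithelial lymphocytes (IELs) of C57BL/6J mice, sorted for the leukocyte protein CD45 3 hours after injection, and gene counts came from strand-specific mRNA sequencing. In the Ex4 group 4 mice received 35 µg of anti-CD3, an antibody that triggers the T cell receptor complex, together with 10 nmol/kg of exendin-4, an agonist of the GLP-1 receptor. In the PBS group 4 mice received the same antibody with PBS. Every animal was therefore stimulated through CD3, and no unstimulated cells were analysed here. The labels give neither age nor sex, and the sort on CD45 does not separate IELs from other leukocytes.

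Total counts ran from 13386889 (Ex4 replicate 4) to 31843413 (Ex4 replicate 3). At a matched depth of 13386889 counts, Ex4 replicate 3 and PBS replicate 2 had the fewest genes detected, 16469 and 16142 against 17523 to 19087 in the other libraries. For the labelled cell type, 10 of 10 T cell and IEL genes were detected in every library. So were the epithelial and the B and plasma cell markers given below, so detection alone does not identify the cells. The summed level of the T cell and IEL genes was 68387 to 81804 CPM in Ex4 and 50898 to 76792 CPM in PBS. Most of that sum was Gzma and Gzmb, with means of 43962 and 19325 CPM, which are not limited to T cells. The T cell receptor complex gene Cd3g averaged 2057 CPM. CPM are counts scaled to a common library size, here with TMM factors. Transcripts of other cells were present too. The 22 epithelial markers summed to 604 to 1696 CPM in Ex4 and 877 to 2062 CPM in PBS, and none was at 0 in any library. The 14 B and plasma cell markers, none at 0, summed to 743 to 2792 CPM in Ex4 and 1331 to 1663 CPM in PBS. The largest parts of that sum were Jchain, Prdm1 and Irf4, with means of 715, 201 and 196 CPM. Activated T cells can also make Prdm1 and Irf4, so the sum does not measure B and plasma cells alone. In a bulk sample, fewer cells of a type and less RNA per cell cannot be told apart.

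As background, proteins bound for the cell surface or for secretion enter the ER through the Sec61 channel, lose their signal peptide and are folded by chaperones and disulfide isomerases. Chains that fail to fold are sent back to the cytosol and destroyed, a route called ER-associated degradation. Unfolded protein is sensed by IRE1 (gene Ern1), PERK (Eif2ak3) and ATF6, and the active forms of ATF6 and of XBP1, whose mRNA IRE1 splices, switch on chaperone genes. Lymphocytes that begin to secrete cytokines or antibodies enlarge this machinery.

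ATF6 and XBP1 are known to act through short promoter elements, so these were looked up in the RefSeq promoter windows of GRCm38.p6, from 250 bases before to 50 bases after each start site. Windows were found for 31 of the 37 genes, all but Hyou1, Manf, Derl1, Atf6, Sec61a1 and Spcs3. For 28 of the 31 the bases after the start were found in a GENCODE transcript of the gene. The ER stress response element (ERSE, searched on both strands as CCAAT, 9 free bases and CCACG) was present in 10 of the 31, whereas 0.137% of the 27025 genes in the table had it. The shorter ERSE-II (ATTGG, 1 free base and CCACG) was present in 2 of the 31, against 0.044% of all genes. The unfolded protein response element (TGACGTGG) was in 0 of the 31, against 0.714% of all genes. Its letters CGTGG are also the reverse complement of the CCACG in the other elements. The motifs are those already known for ER stress genes, so their larger share among the members than among all genes is not a new finding. They were also chosen with earlier results of these data known, and a match of letters is a description and not a binding site. The copies found in 12 of the 31 genes are shown so that their fixed letters and spacers can be compared. The other 19 held no exact copy of ERSE or ERSE-II in the window. Copies with a changed fixed letter were not counted. They are given with the fixed letters in capitals and the free spacer in lower case, each read 5′ to 3′ in the direction that starts with CCAAT or ATTGG:
Hspa5: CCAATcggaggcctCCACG
Hsp90b1, distal: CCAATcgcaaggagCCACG
Hsp90b1, proximal: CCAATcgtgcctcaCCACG
Calr: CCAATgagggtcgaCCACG
Canx: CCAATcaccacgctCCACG
Dnajc3: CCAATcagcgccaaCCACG
Creld2: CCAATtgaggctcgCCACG
Pdia6: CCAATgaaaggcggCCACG
Ero1lb: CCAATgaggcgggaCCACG
Syvn1: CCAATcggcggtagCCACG
Derl3: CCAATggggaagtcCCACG
Dnajb11: ATTGGcCCACG
Herpud1: ATTGGgCCACG

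The first 11 are ERSE copies and the last 2 are ERSE-II. Hsp90b1 alone among the members carried 2 copies, which lay on opposite strands. In the chaperone group 7 of 9 genes with a window held ERSE or ERSE-II, and among the isomerases and the oxidase 2 of 5 did. Of the degradation genes 3 of 9 held an element, against 0 of 3 genes for sensors and XBP1 and 0 of 5 channel and peptidase genes with a window. For the degradation gene Herpud1 and the chaperone-associated genes Hspa5 and Creld2, whose counts are described below, the whole window is given with the element in capitals.
Hspa5, chr2:34771840-34772139, plus strand, element 65 to 47 bases before the start: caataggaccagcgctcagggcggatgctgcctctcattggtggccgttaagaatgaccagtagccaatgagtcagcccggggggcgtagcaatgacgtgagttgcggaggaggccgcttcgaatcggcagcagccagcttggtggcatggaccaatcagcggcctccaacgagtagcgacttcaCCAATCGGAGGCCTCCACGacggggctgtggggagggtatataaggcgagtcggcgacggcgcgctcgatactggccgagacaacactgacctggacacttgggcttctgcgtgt
Creld2, chr15:88819396-88819695, plus strand, element 126 to 108 bases before the start and on the opposite strand: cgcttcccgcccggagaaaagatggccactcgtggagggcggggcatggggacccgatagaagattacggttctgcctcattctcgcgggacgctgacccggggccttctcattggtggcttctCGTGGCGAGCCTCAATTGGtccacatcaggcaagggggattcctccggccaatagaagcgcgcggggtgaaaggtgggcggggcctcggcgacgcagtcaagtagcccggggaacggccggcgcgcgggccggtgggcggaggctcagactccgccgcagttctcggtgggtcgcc
Herpud1, chr8:94386179-94386478, plus strand, element 52 to 42 bases before the start: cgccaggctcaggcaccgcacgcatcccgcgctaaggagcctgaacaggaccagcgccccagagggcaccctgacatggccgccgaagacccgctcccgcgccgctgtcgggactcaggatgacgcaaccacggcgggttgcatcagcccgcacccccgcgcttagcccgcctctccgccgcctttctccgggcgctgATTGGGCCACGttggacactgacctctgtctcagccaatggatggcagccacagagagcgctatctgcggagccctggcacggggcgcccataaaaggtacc

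Levels of different genes were compared only per length, in TPM, the CPM-like unit that also divides by length, here the union of GENCODE exons. Hspa5, which encodes the ER HSP70 BiP, had the largest TPM value at 3824, and its lowest library lay above the highest library of Pdia3, the next in order with 1206 TPM. Below them the order was not separated: from Spcs2 (743 TPM), Canx (726 TPM), Sdf2l1 (675 TPM) and Selenos (670.1 TPM) down to Ssr3 (64.00 TPM) the ranges of every pair of neighbours overlapped. Xbp1 stood among the abundant genes at 553 TPM, whereas the sensors themselves were near the bottom, Eif2ak3 at 16.6, Atf6 at 16.1 and Ern1, the lowest of the 37, at 4.10 TPM. Derl3 (6.74 TPM) and Hyou1 (6.68 TPM) were also low.

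**Figure D1:**
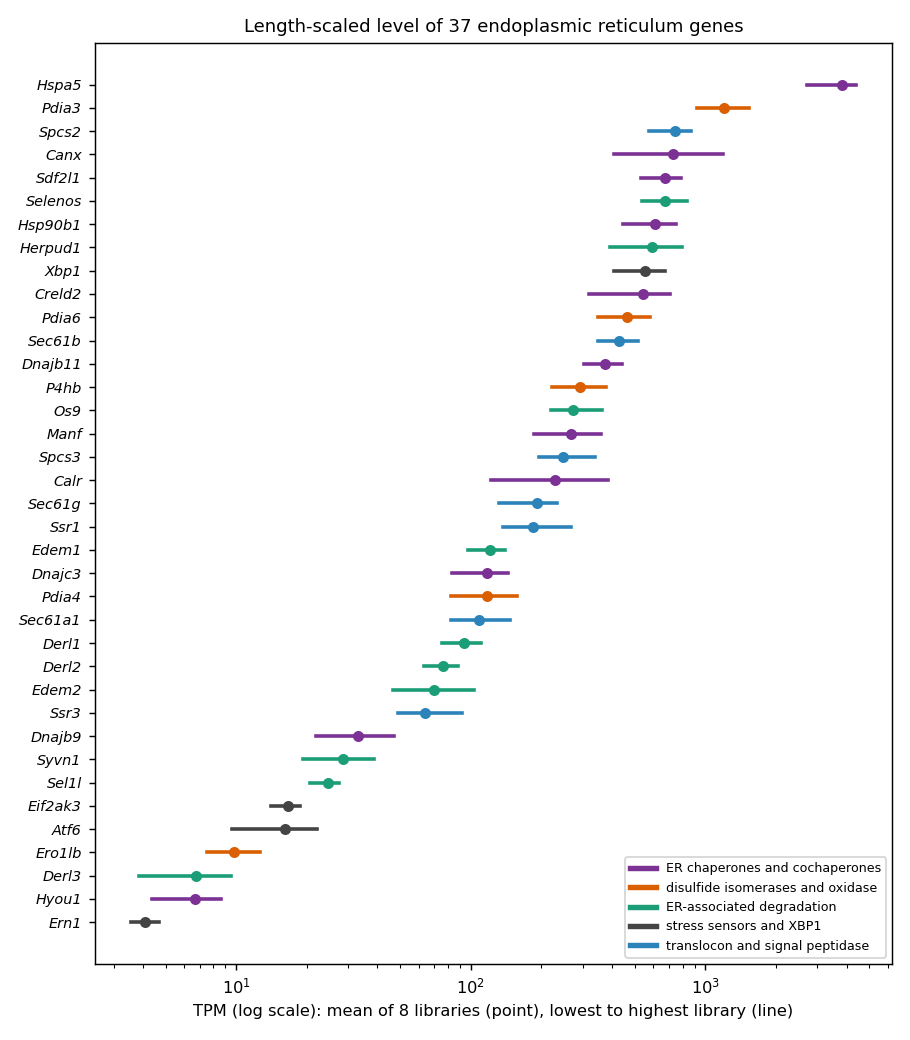
Length-scaled level of the 37 ER genes in TPM on a log axis, with the mean of the 8 libraries as a point and the lowest and highest library as the ends of the line, coloured by role. Hspa5 averaged 3824 TPM and stood apart from Pdia3 at 1206 TPM, and the sensor Ern1 was lowest at 4.10 TPM.

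The comparison asked whether exendin-4 altered these genes in IELs activated through CD3. Chaperone and isomerase genes had lower means in Ex4, without exception among 16, while the sensor genes and several degradation genes did not share that direction. None of the 37 passed edgeR's quasi-likelihood test (adjusted p at or above 0.31), in which 0.0136% of 14691 genes passed in either direction. DESeq2 called 2 members, Creld2 and Herpud1, both lower, where it called 0.229% of 13129 genes lower, and limma-voom called 0. In simulated counts with known changes 25 of 117 DESeq2 calls were false, as were 8 of 84 in edgeR. There edgeR recovered 9.4% of 1.5-fold changes, so an absence of calls does not show an absence of change. At an unadjusted p under 0.05 in edgeR 10 of the 37 (27.0%) were lower and 0 higher, whereas 3.9% of all genes tested were lower and 3.71% higher. The libraries of the groups did not overlap for 7 of the 37 (18.9%), all lower in Ex4, where 2.66% of all genes were lower and 2.29% higher without overlap. The median log2 fold change was -0.27 over the 37 and 0.02 over all genes, and 30 of 37 values (81.1%) were below 0, against 47.1% of all genes. Over the alternatives the 10 became 9 to 17, with 17 without Ex4 replicate 3 and 16 with the log2 total counts as a term. The 7 became 7 to 13, with 13 without both Ex4 replicate 3 and PBS replicate 2. Shares over all genes were not computed for these counts. Fewer libraries make an absence of overlap more likely for any gene, so the larger counts do not show a stronger result. Fold changes of members are not independent of each other, and no test of the list was made.

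**Figure D2:**
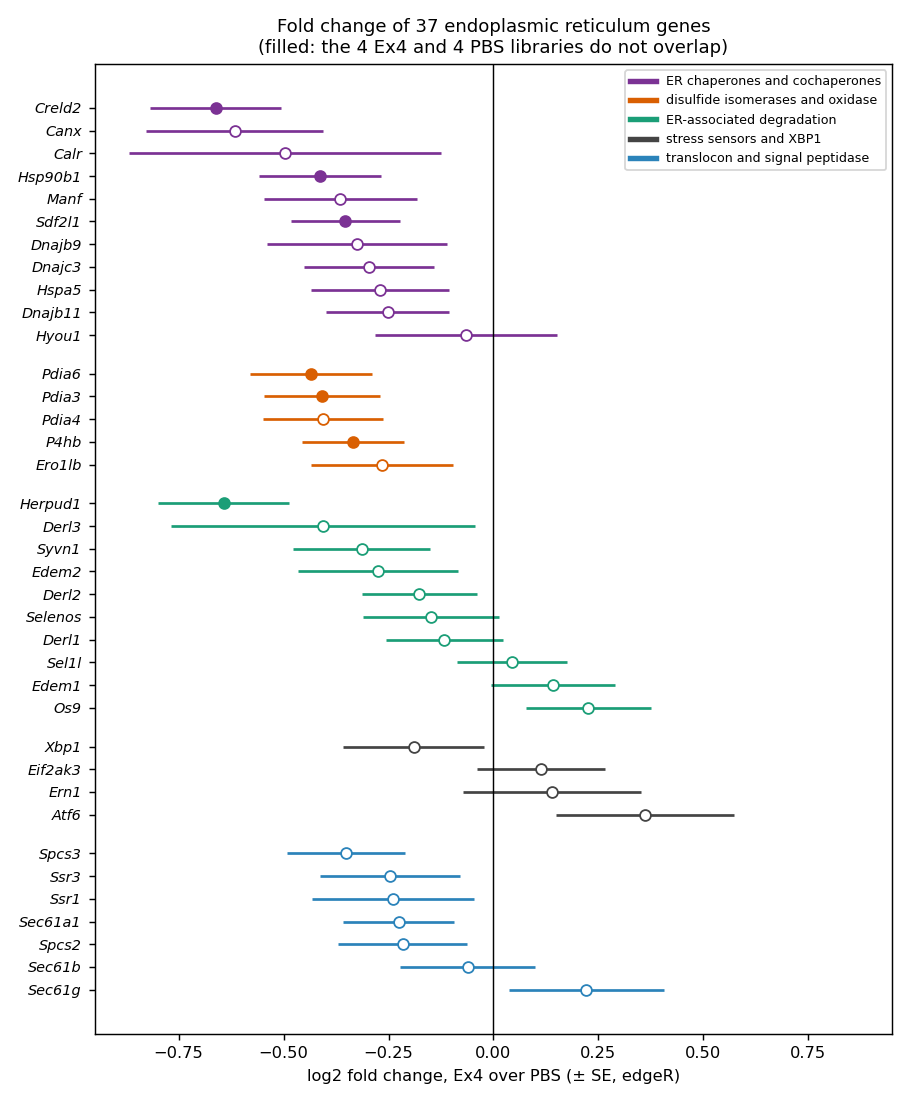
Log2 fold change of Ex4 over PBS with its SE from edgeR for each of the 37 genes, ordered within its role; filled points mark the 7 genes whose 4 Ex4 and 4 PBS libraries do not overlap. The 16 chaperone, isomerase and oxidase values all lie below 0, and Atf6 has the highest value at 0.36.

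Together the 37 genes took 1.52, 1.79, 1.69 and 1.54% of all counts in Ex4 replicates 1 to 4 and 2.03, 1.94, 2.09 and 2.12% in PBS replicates 1 to 4. Hspa5 was the largest part of it. This share was lower in each Ex4 library than in any PBS library and does not depend on TMM scaling. Within the Ex4 group the libraries were unequal. Ex4 replicates 1 and 4 had the lowest CPM of all 8 libraries for 14 and 12 of the 37 genes, Ex4 replicates 2 and 3 for 1 and 2 genes, and the PBS replicates for 0 to 3. PBS replicate 4 was the highest for 12. Those low Ex4 libraries were also the ones with least Jchain, the antibody joining chain of plasma cells, which was at 146, 585, 1762 and 157 CPM in Ex4 replicates 1 to 4 and 1304, 617, 511 and 638 CPM in PBS replicates 1 to 4. Mzb1, an ER cochaperone of B and plasma cells, was likewise lowest in them, at 10.2, 23.97, 63.3 and 14.2 CPM in Ex4 replicates 1 to 4 and 25.3, 30.7, 35.3 and 19.4 CPM in PBS replicates 1 to 4. For both genes Ex4 replicate 3 was the highest library and the groups overlapped. Jchain and Mzb1 were chosen after their values were seen, and Prdm1 and Irf4 ran otherwise. Prdm1 was highest in Ex4 replicate 1 (261 CPM) and lowest in PBS replicate 1 (96.2 CPM). Irf4 was at 195 and 220 CPM in Ex4 replicates 1 and 4 and lowest in PBS replicate 1 (70.4 CPM). The mean log2 CPM of the 14 markers was 4.08, 4.75, 5.71 and 4.74 in Ex4 replicates 1 to 4. In PBS replicates 1 to 4 it was 4.27, 5.13, 5.40 and 4.75. Of the 14 B and plasma cell markers 9 had a log2 fold change below 0, with a median of -0.11, and 1, Tnfrsf17, was higher in Ex4 without overlap. Plasma cells are known for a large ER. A fit with the B and plasma cell score as a term was among the alternatives. Its medians are not given on their own, only within the range over all alternatives at the end. The part of plasma cells in the result was not tested beyond this fit.

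The chaperones and their cochaperones had a median log2 fold change of -0.35, with 11 of 11 below 0, 4 at an unadjusted p under 0.05 and 0 called by edgeR. Creld2, a stress-induced ER protein with isomerase-like motifs, had the lowest value of the 37. It was at 159, 263, 241 and 192 CPM in Ex4 replicates 1 to 4 and at 321, 368, 323 and 341 CPM in PBS replicates 1 to 4. All Ex4 libraries lay below all PBS libraries, and the Ex4 group was the more spread, with a coefficient of variation of 22.0% against 6.39% in PBS. The log2 fold change was -0.66 (SE 0.16, edgeR adjusted p = 0.31), and DESeq2 gave adjusted p = 0.0264. Over 20 alternatives it ran from -0.80 to -0.56, with adjusted p from 0.0264 to 0.707. In GRCm38 Creld2 spans chr15:88819646-88826681 on the plus strand.

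Hspa5 was at 5400.4, 6093, 6432 and 4123 CPM in Ex4 and 5729.8, 7175, 6505 and 7192 CPM in PBS (replicates 1 to 4 in each). The groups overlapped, Ex4 replicate 4 being the lowest library, and the log2 fold change was -0.27 (SE 0.16, edgeR adjusted p = 0.744). For Hsp90b1, the ER HSP90 known as GRP94, the Ex4 libraries had 650.1, 916, 896 and 698 CPM and the PBS libraries 981, 1030.2, 1112 and 1089 CPM. These did not overlap, and Ex4 replicates 1 and 4 were again the lowest (-0.41, SE 0.15, edgeR adjusted p = 0.499). Sdf2l1, a partner of BiP that keeps substrates from aggregating, was at 214, 279, 256 and 236 CPM in Ex4 and 282, 340.3, 304 and 332 CPM in PBS. Its groups were apart by a small gap, between Ex4 replicate 2 and PBS replicate 1 (-0.35, SE 0.13, edgeR adjusted p = 0.528). Dnajb11, an HSP40 cochaperone of BiP, was at 368, 461, 474 and 355 CPM in Ex4 and 421, 555, 463 and 535 CPM in PBS, with overlap (-0.25, SE 0.15, edgeR adjusted p = 0.729).

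Calnexin and calreticulin, which hold glycoproteins during folding, varied widely between mice. Canx was at 692, 963, 1043 and 1288 CPM in Ex4 and at 1841, 985, 1669.9 and 1614 CPM in PBS. PBS replicate 2 lay among the Ex4 libraries, and the log2 fold change was -0.62 (SE 0.21, edgeR adjusted p = 0.477). Calr was at 127, 175, 167 and 339.8 CPM in Ex4 and 367, 175, 189.6 and 409 CPM in PBS. Ex4 replicate 4 and PBS replicates 1 and 4 were high and the other 5 libraries low, which gave the widest SE of the 37 (-0.50, SE 0.37, edgeR adjusted p = 0.821). The remaining chaperone genes overlapped between groups. Manf, a secreted stress-induced factor, Dnajc3, an inhibitor of PERK, and Dnajb9, a cochaperone that restrains IRE1, had log2 fold changes of -0.36, -0.30 and -0.32 (edgeR adjusted p from 0.677 to 0.782). Hyou1, a large HSP70 relative that helps BiP exchange nucleotide, was at 17.6 ± 4.18 CPM in Ex4 and 18.5 ± 3.85 CPM in PBS (SD, n = 4 each).

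Among the disulfide isomerases and the oxidase 5 of 5 values were below 0, with a median log2 fold change of -0.41. At an unadjusted p under 0.05 there were 4, and 0 were called. Pdia3, which works with calnexin and calreticulin on glycoproteins, was at 1117, 1376, 1333 and 1044 CPM in Ex4 and 1601, 1729.7, 1605 and 1529 CPM in PBS. No library overlapped between the groups (-0.41, SE 0.14, edgeR adjusted p = 0.468). Pdia6, an isomerase that also acts on IRE1, had 482, 649, 605 and 470.3 CPM in Ex4 and 651, 786, 798 and 746 CPM in PBS. Here Ex4 replicate 2 and PBS replicate 1 were almost level (-0.43, SE 0.15, edgeR adjusted p = 0.466). P4hb, the founding protein disulfide isomerase, was at 279, 305, 269.8 and 248 CPM in Ex4 and 359, 353, 324 and 353 CPM in PBS. It had the smallest SE of the 37 and separate groups (-0.33, SE 0.12, edgeR adjusted p = 0.524). Pdia4 was at 87.5, 90.7, 114 and 71.1 CPM in Ex4 and 125, 120.0, 122 and 113 CPM in PBS. Only Ex4 replicate 3 reached the PBS range, by a narrow margin (-0.41, SE 0.14, edgeR adjusted p = 0.499). Ero1lb, the oxidase that recharges isomerases, averaged 22.1 ± 4.14 CPM in Ex4 and 26.6 ± 1.39 CPM in PBS (SD, n = 4 each), with a log2 fold change of -0.27 (edgeR adjusted p = 0.769).

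**Figure D3:**
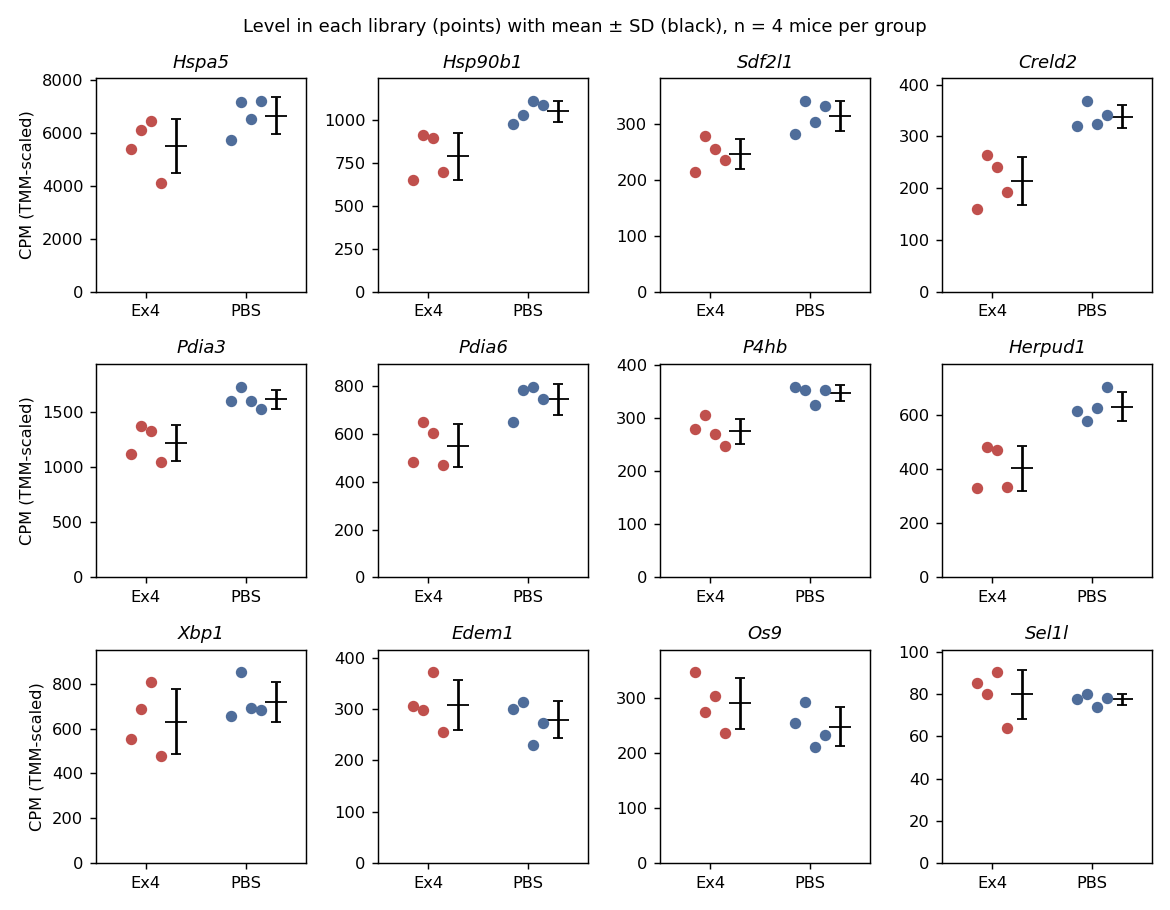
CPM of 12 ER genes in each library, with Ex4 left and PBS right and the mean ± SD of 4 mice in black; each axis starts at 0. The 7 genes from Hsp90b1 to Herpud1 have Ex4 libraries below all PBS libraries, while Hspa5, Xbp1, Edem1, Os9 and Sel1l overlap.

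The degradation genes were divided. Their median log2 fold change was -0.16, 7 of 10 were below 0, 1 had an unadjusted p under 0.05 and 0 were called by edgeR. Herpud1, a membrane protein that organises the degradation complex, was at 331, 483, 469 and 333 CPM in Ex4 replicates 1 to 4 and 616, 577, 625 and 704 CPM in PBS replicates 1 to 4. Every Ex4 library lay below every PBS library, with Ex4 replicates 1 and 4 lowest. The log2 fold change was -0.64 (SE 0.16, edgeR adjusted p = 0.31), DESeq2 gave adjusted p = 0.0255, and over 20 alternatives the adjusted p ran from 0.0255 to 0.707. In GRCm38 Herpud1 spans chr8:94386429-94395371 on the plus strand. Sel1l and Syvn1 encode the core of the same complex, an adaptor and its ubiquitin ligase. Sel1l was at 85.2, 80.2, 90.4 and 63.98 CPM in Ex4 and 77.95, 80.2, 73.8 and 78.3 CPM in PBS, and the PBS mice were within a narrow band inside the Ex4 range (0.044, SE 0.13, edgeR adjusted p = 0.966). Syvn1 averaged 45.99 ± 6.91 CPM in Ex4 and 57.2 ± 10.98 CPM in PBS (SD, n = 4 each; log2 fold change -0.31, edgeR adjusted p = 0.686).

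The lectin-like genes that pick out misfolded glycoproteins were not lower together. Os9 was at 347, 274, 303 and 237 CPM in Ex4 and 255, 294, 212 and 233 CPM in PBS, and Edem1, of the mannosidase family, at 307, 298, 372 and 255 CPM in Ex4 and 299.9, 313, 231 and 273 CPM in PBS. For both the Ex4 mean was the higher and the groups overlapped (log2 fold changes 0.23, SE 0.15, and 0.14, SE 0.15; edgeR adjusted p = 0.782 and 0.878). Edem2 had a value of -0.27 (SE 0.19, edgeR adjusted p = 0.793). Selenos, a selenoprotein that recruits the extraction ATPase to the membrane, was at 288, 394, 408 and 324 CPM in Ex4 and 298, 377, 451 and 442 CPM in PBS, with wide overlap (-0.15, SE 0.16, edgeR adjusted p = 0.885). The derlins, channel proteins of the same route, had log2 fold changes of -0.12 (Derl1), -0.18 (Derl2) and -0.41 (Derl3, SE 0.36), and Derl3 had as few as 57 counts in a library. As a ratio of counts within a library, which no scaling can alter, Herpud1 over Sel1l was 3.88, 6.02, 5.19 and 5.20 in Ex4 replicates 1 to 4 and 7.90, 7.19, 8.47 and 8.99 in PBS replicates 1 to 4. This pair was chosen after its values were seen, so the absence of overlap is a description. The group median was -0.27 without Ex4 replicate 3.

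None of the 4 genes for sensors and XBP1 was called or had an unadjusted p under 0.05, and their median log2 fold change was 0.13. Atf6, whose product is cut and moves to the nucleus under stress, was at 74.04, 53.6, 73.5 and 51.5 CPM in Ex4 and 29.2, 61.2, 57.7 and 48.6 CPM in PBS, PBS replicate 1 being the lowest (0.36, SE 0.21, edgeR adjusted p = 0.733). Ern1 was at 13.6, 13.8, 12.5 and 12.95 CPM in Ex4 and 9.62, 12.7, 10.9 and 14.9 CPM in PBS (0.14, SE 0.21, edgeR adjusted p = 0.93). Eif2ak3 was at 34.9, 43.3, 40.6 and 37.7 CPM in Ex4 and 28.1, 37.01, 41.1 and 38.5 CPM in PBS (0.11, SE 0.15, edgeR adjusted p = 0.924). In all 3 sensors the groups overlapped. Xbp1 was at 552, 687, 808 and 478 CPM in Ex4 and 656, 852, 691 and 684 CPM in PBS, also with overlap (-0.19, SE 0.17, edgeR adjusted p = 0.855). Gene counts do not separate its spliced from its unspliced mRNA, so sensor activity was not measured. Without PBS replicate 1 the median of these 4 genes was 0.019.

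Genes of protein entry had a median log2 fold change of -0.23, with 6 of 7 below 0, 1 at an unadjusted p under 0.05 and 0 called. Spcs3 and Spcs2 encode subunits of signal peptidase. Spcs3 was at 254, 297, 335 and 244 CPM in Ex4 and 391, 307, 381 and 363 CPM in PBS, PBS replicate 2 lying within the Ex4 range (-0.35, SE 0.14, edgeR adjusted p = 0.564). Spcs2 was at 879.6, 1302, 1248 and 930.4 CPM in Ex4 and 1148, 1306, 1341 and 1270.5 CPM in PBS, with overlap (-0.22, SE 0.15, edgeR adjusted p = 0.799). Sec61a1, the pore of the channel, was at 248, 253, 235 and 271 CPM in Ex4 and 327, 288, 240.3 and 323 CPM in PBS. PBS replicate 3 lay inside the Ex4 range (-0.23, SE 0.13, edgeR adjusted p = 0.731). Its small partners differed from it in sign or size: Sec61b had -0.062 (SE 0.16) and Sec61g 0.22 (SE 0.19), neither past the test. Ssr1, a subunit of the translocon-associated complex, was at 518, 637, 629.7 and 848 CPM in Ex4 and 754, 596, 682 and 1078 CPM in PBS. Replicate 4 was highest in each group (-0.24, SE 0.19, edgeR adjusted p = 0.834), and Ssr3 had -0.25. The median of these 7 genes was -0.08 without PBS replicate 4.

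**Figure D4:**
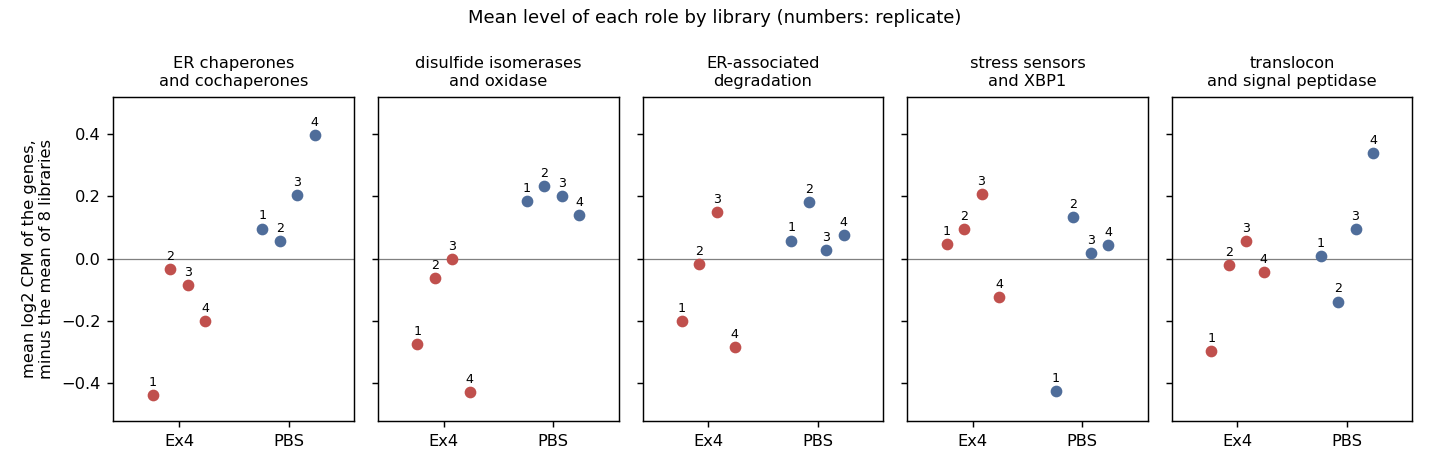
Mean log2 CPM of the genes of each role in each library, after subtracting the mean of the 8 libraries, with Ex4 left of PBS and the replicate number above each point. The isomerase scores span 7.44 to 7.86 in Ex4 and 8.01 to 8.10 in PBS before that subtraction, and chaperone scores are likewise apart, while the other 3 roles overlap.

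The roles were also set against each other within each library, a difference in which the scaling of a library cancels apart from the prior count. The mean log2 CPM of the 16 folding genes minus that of the 4 genes for sensors and XBP1 was 1.69, 1.99, 1.85 and 1.97 in Ex4 replicates 1 to 4 and 2.67, 2.10, 2.31 and 2.40 in PBS replicates 1 to 4. The groups did not overlap, PBS replicate 1 had the largest difference, and this pairing of roles was chosen after the values were seen and was not tested. Chaperone scores alone were 7.81, 8.22, 8.16 and 8.05 in Ex4 and 8.35, 8.30, 8.45 and 8.65 in PBS. Scores of the genes for sensors and XBP1 were 6.06, 6.10, 6.22 and 5.88 in Ex4 and 5.58, 6.14, 6.03 and 6.05 in PBS, with PBS replicate 1 the lowest of the 8.

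Most epithelial markers had the same direction as the folding genes: 17 of 22 had a log2 fold change below 0, with a median of -0.44. Of the 22, 4 had an unadjusted p under 0.05, 2 were without overlap, and 0 were called by edgeR or DESeq2. The 5 above 0 were the goblet, Paneth or antimicrobial genes Tff3 (0.14), Agr2 (0.037), Spink4 (0.41), Reg3g (0.20) and Reg3b (0.21). Of the other goblet and Paneth cell genes, Muc2 (-0.37), Fcgbp (-0.28) and Lyz1 (-0.71) were below 0. Epcam, an epithelial adhesion gene, was at 97.4, 129, 144 and 131 CPM in Ex4 and 184, 146, 160.3 and 154 CPM in PBS. The median log2 fold change of the chaperones was -0.23 with the epithelial score as a term in the fit and -0.35 without it. That of the isomerases was -0.35 with it and -0.41 without it, and that of the degradation genes -0.094 with it and -0.16 without it. Selenos and Sec61b changed sign with that term. The part of epithelial RNA in the result was not tested beyond this. Of the 10 T cell and IEL genes 3 were below 0, among them the coreceptor gene Cd8a at 953, 1219, 998 and 1070.5 CPM in Ex4 and 2074, 1513, 1363 and 1449.6 CPM in PBS (-0.59, edgeR adjusted p = 0.351, DESeq2 adjusted p = 0.0424). Cd8a was thus also lower without overlap, and was chosen after its values were seen. The 12 macrophage, monocyte and dendritic markers summed to 130.3 to 211 CPM in Ex4 and 129 to 247 CPM in PBS, the 5 neutrophil markers to 9.24 to 27.0 CPM in Ex4 and 2.78 to 24.3 CPM in PBS, and the 8 stromal and endothelial markers to 44.2 to 60.1 CPM in Ex4 and 54.3 to 94.8 CPM in PBS. Of these lists Pecam1, an endothelial adhesion gene also made by leukocytes, was lower without overlap, at 28.6, 49.1, 44.9 and 31.8 CPM in Ex4 and 87.3, 49.2, 68.9 and 56.4 CPM in PBS (-0.76, SE 0.21, edgeR adjusted p = 0.354). Xcr1, a chemokine receptor gene of dendritic cells, was at 12.7, 12.9, 9.97 and 7.78 CPM in Ex4 and 14.1, 17.4, 17.3 and 19.4 CPM in PBS, also without overlap (-0.65, SE 0.22, edgeR adjusted p = 0.473). Both had the direction of the folding genes, but the lists were divided. Of the macrophage, monocyte and dendritic markers 7 had a log2 fold change below 0 and 5 above. Of the 5 stromal and endothelial markers tested 3 were below 0 and 2 above, and all 4 neutrophil markers tested were above 0. Cd68, of the macrophage list, was higher in Ex4 (0.56, SE 0.18, edgeR adjusted p = 0.439). Fcgr1, a macrophage receptor gene, Ly6g of neutrophils, and the collagen genes Col1a2 and Col3a1 were at 0 in at least 1 library. The part of these last 3 lists in the result was not tested.

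By promoter element, the 12 members with ERSE or ERSE-II had a median log2 fold change of -0.41 and 12 of 12 values below 0, from -0.66 (Creld2) to -0.25 (Dnajb11). The 19 members with a window but neither element had a median of -0.19, with 13 of 19 below 0. Those 19 included Pdia3, P4hb and Sdf2l1, whose groups did not overlap, and Os9, Edem1 and Sel1l, whose values were above 0. Outside the member list 29 genes of the table carried ERSE or ERSE-II, of which 16 passed the low-count filter. Their median was 0.035, 7 of 16 were below 0 and 0 were called, and 1, Lrif1, was higher in Ex4 without overlap. Alg12, a glycosylation gene, was at 17.6 ± 3.90 CPM in Ex4 and 19.4 ± 4.11 CPM in PBS, Nucb1 at 228 ± 37.6 CPM in Ex4 and 219 ± 31.9 CPM in PBS, and Krtcap2, a subunit gene of oligosaccharyltransferase, at 169 ± 14.2 CPM in Ex4 and 171 ± 36.6 CPM in PBS (SD, n = 4 each). These classes were not compared by a test, and role and element go together among the members.

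**Figure D5:**
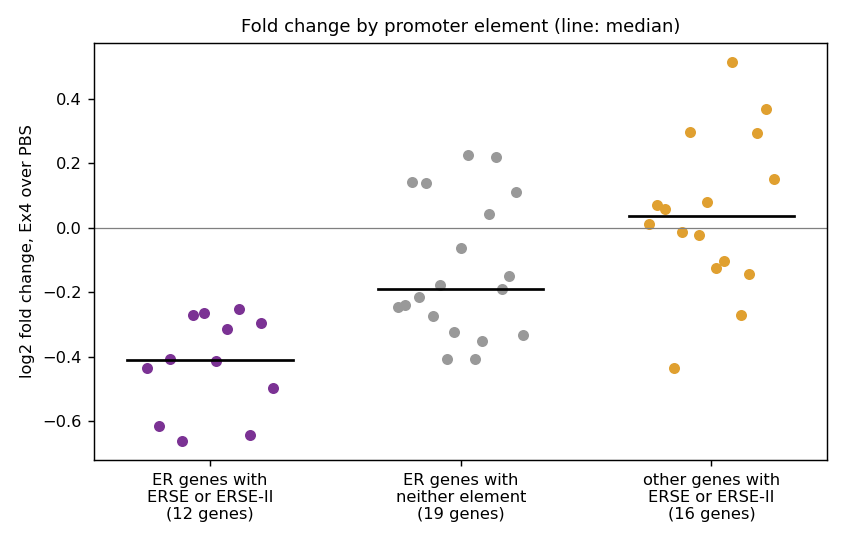
Log2 fold change of Ex4 over PBS for ER genes with ERSE or ERSE-II in the promoter window, ER genes with a window and neither element, and other tested genes with an element, with the median as a line. The medians are -0.41, -0.19 and 0.035.

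Other genes of the pathway, listed by role, gave 0 calls among the 94 tested in edgeR, 0 in DESeq2 and 0 in limma-voom. The PERK branch and the integrated stress response (15 genes tested) had 8 values below 0 and a median of -0.06, with 0 at an unadjusted p under 0.05. Atf4, its main transcription factor, was at 197 ± 17.8 CPM in Ex4 and 196 ± 44.6 CPM in PBS, and Ddit3, which encodes the death-associated factor CHOP, at 47.5 ± 3.97 CPM in Ex4 and 49.6 ± 9.19 CPM in PBS (SD, n = 4 each). Asns, an amino acid synthesis gene induced by ATF4, had a log2 fold change of 0.67 (SE 0.37), Cebpg of -0.30 (SE 0.14) and Ppp1r15b, a subunit of the phosphatase that ends this response, of -0.17 (SE 0.13). The factors and proteases that process ATF6 and XBP1 had a median of -0.11 over 12 genes, with 0 at an unadjusted p under 0.05. Creb3l2 had 0.45, Crebrf 0.33 and Nfya, a subunit of the factor that binds CCAAT, -0.51 (edgeR adjusted p from 0.686 to 0.731).

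Further chaperones and isomerases, 24 tested, had a median of -0.06 with 13 below 0 and 3 at an unadjusted p under 0.05, all lower. These were Txndc5, an isomerase, at 113 ± 17.3 CPM in Ex4 and 153 ± 20.1 CPM in PBS, Mesd, a chaperone of lipoprotein receptors, at 56.9 ± 8.03 CPM in Ex4 and 75.5 ± 12.2 CPM in PBS, and Creld1 at 17.7 ± 5.05 CPM in Ex4 and 24.9 ± 4.33 CPM in PBS (SD, n = 4 each). The 18 further degradation genes had a median of -0.0040, with 10 below 0 and 0 at an unadjusted p under 0.05. Their smallest p-values belonged to the ubiquitin ligase gene Rnf5 (-0.23) and the conjugating enzyme genes Ube2j2 (0.49) and Ube2g2 (-0.22). Further translocation, signal peptidase and glycosylation genes had a median of -0.10 over 25 genes, with 18 below 0 and 3 at an unadjusted p under 0.05. Srprb, a subunit of the signal recognition particle receptor, was at 58.2 ± 3.58 CPM in Ex4 and 78.7 ± 12.2 CPM in PBS, with no overlap (-0.43, SE 0.14, edgeR adjusted p = 0.432). Txndc5, Mesd and Cnpy3 of the previous list, and Srprb and Stt3a of this one, were lower without overlap. Rpn1 and Stt3b, subunits of oligosaccharyltransferase, had -0.47 (SE 0.17) and -0.29 (SE 0.13), and neither passed. Srprb, Rpn1 and Stt3b were the 3 of 25 at an unadjusted p under 0.05.

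Exons of some members overlap another gene in GENCODE, and the strand setting of the authors' counting is not given in the sources used here. Among members described above, Hsp90b1 overlaps 1810014B01Rik, Pdia3 overlaps Catsper2, Pdia6 overlaps Atp6v1c2, Syvn1 overlaps Mrpl49, Derl2 overlaps Mis12, Dnajb9 overlaps Mir5627 and Spcs3 overlaps Asb5, each on the opposite strand. On the same strand Pdia4 overlaps Mir704, Manf overlaps Rbm15b, and Hsp90b1 overlaps Gm15344 and Gm25745, which are not among the symbols of the count table. Manf also overlaps Dcaf1 on the opposite strand. Reads in those stretches could belong to either gene.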

How the data were processed

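For 4 Ex4 and 4 PBS libraries the authors deposited raw counts by gene symbol, all whole numbers. Per the submitters' processing notes STAR 2.7.9a, DESeq2 and mm10 were used, in an order and role not stated. Which counter and annotation were used is not given in the sources used here. Libraries were TruSeq stranded mRNA, per the labels. All 8 columns were matched to mice by description, and groups and replicate numbers came from the titles. Replicates differed by more than sampling noise (chi-square over genes, 20.6 to 77.1 for each gene on average), so none was merged. Each title names a mouse, but the labels give no batch and do not say how samples were handled, so p-values measure the spread between these samples.

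Counts were tested with edgeR 4.0.16 in R 4.3.3: filterByExpr by group, TMM scaling, the robust quasi-likelihood F test of Ex4 against PBS, and Benjamini-Hochberg adjustment over 14691 genes at a threshold of 0.05. SEs came from the fold change and its F statistic. Log2 CPM used a prior count of 2. TPM used GENCODE M21 exon unions, found for 24730 of 25230 symbols. Alternatives were DESeq2 1.42.0, limma-voom (limma 3.58.1), other scalings and filters, libraries left out, a replicate block and covariates. The script was tested on simulated data, and its false calls and recovery are given with the comparison. Figures used Python 3.11.15 with matplotlib 3.10.9.

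The members, lists, motifs and tests were chosen with earlier results of these data known. Genes given in full were, per role, the 4 with the highest mean CPM and any whose groups did not overlap, with every other member given in brief. In other lists the 3 genes with the smallest p were named, with Atf4 and Ddit3. Calr, Sel1l, Jchain, Mzb1, Epcam, Cd8a, Pecam1, Xcr1, Alg12, Nucb1, Krtcap2 and the ratios of genes or roles were chosen after their values were seen. So were Cd68, Prdm1, Irf4 and the epithelial markers given with a fold change. Ufd1 and Mesd were matched through RefSeq synonyms. Precision is limited by 4 mice per group, and depth per library is given with the results.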

Additional observations from a re-analysis of the deposited data

How the results depend on the processing

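Of 739 member values recomputed over 20 alternatives, 723 kept their direction and stayed outside the threshold, 2 passed it (Creld2, -0.68, and Herpud1, -0.66, with DESeq2, which called 2 members where edgeR called 0) and 14, in 6 genes, changed sign near 0. Over all genes, 2 were called, against 70 with DESeq2, 8 without a low-count filter, and 1 each with limma-voom, the epithelial score, the B and plasma cell score and the replicate block. Leaving out 1 library gave 1 to 14 (14 without PBS replicate 2), and among members 0 to 0 calls. Members at an unadjusted p under 0.05 numbered 16 with log2 total counts as a term and 9 to 17 with 1 library left out, and those without overlap 13 without both PBS replicate 2 and Ex4 replicate 3, an alternative added after seeing the data, and 7 to 10 with 1 left out. Shares over all genes were not computed for these counts in any alternative, and fewer libraries make an absence of overlap more likely for any gene. Sign changes were Selenos 0.0067 and Sec61b 0.081 with the epithelial score, Sel1l -0.0099 with total counts, and Hyou1 0.0058, Sel1l -0.015 and Sec61g -0.026 without that pair, where Sec61b was -0.19; Sec61g reached 0.35 without PBS replicate 4. With 1 library left out Sel1l ran from -0.042 to 0.12, Sec61b from -0.17 to 0.019, Hyou1 from -0.22 to 0.070 and Eif2ak3 from -0.00023 to 0.15. The cause of these changes was not tested. Over the alternatives the median log2 fold change ran from -0.35 to -0.22 for all members, -0.48 to -0.23 for chaperones, -0.48 to -0.32 for isomerases, -0.27 to -0.094 for degradation, 0.019 to 0.19 for sensors with XBP1 and -0.32 to -0.083 for entry genes. Same-numbered Ex4 and PBS libraries correlated at -0.24 to 0.14 in their deviations from the group means, and not every library correlated best with its own number. These values gave no sign that the numbers pair the mice. They cannot exclude it, as the labels do not say how samples were handled. The replicate block, with 12 members at an unadjusted p under 0.05 and 0 calls among them, is given only here. The low counts of Derl3 limit its precision.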
